A study of Mus musculus with 6 samples.

Results

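Interferon-stimulated genes, the transcripts that cells switch on when an interferon binds its receptor, were followed across brain immune cells of young and aged mice with an intact or a depleted gut microbiota. The members were 39 listed genes, all found among the 19848 genes of the RNA table. They were described in the 10 cell types named by the authors and tested mainly in microglia, the resident macrophages of the brain, which made up 9403 of 13052 cells. All mice were female C57BL/6, aged 12 weeks (young) or 72 weeks (aged). Control mice received vehicle and kept their microbiota, and the other mice received antibiotics (ABX). The 24 brains, 6 per group, were perfused, digested with papain, enriched for immune cells on a Percoll gradient and collapsed into 3 pools per group. Each pool carried its own hashtag, an antibody barcode of the pool, and RNA and surface antibody tags were read from the same cells (CITE-seq).

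Type I interferons signal through a receptor pair that activates JAK kinases and STAT factors. STAT2 joins IRF9 in a complex that binds the interferon-stimulated response element of target promoters, and the products of these targets sense foreign nucleic acid, block viral replication or feed back on the signal. In microglia such a response is known from viral infection, from injury and from ageing, where it is often seen in a small fraction of the cells. The listed genes fall into signal transducers and transcription factors, nucleic acid sensors, the OAS, IFIT and Schlafen families, membrane proteins, the ISG15 system, nucleotide and RNA effectors, a galectin group and others.

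The response element was searched for in promoters because it is the sequence these genes are known to share. It was read as GAAANNGAAA on either strand in the 250 bases before a gene's start, where overlapping matches count separately (RefSeq, GRCm38.p6). Of the 39 members, 31 were in the promoter table, and 14 of them held a match (45.2%), against 3.46% of the 27025 genes of the table. The shorter form GAAANNGAA, which every full match also contains, was found in 15 of 31 members and 8.18% of all genes. The gamma-activated site TTCNNNGAA was found in 5 of 31 members and 8.13% of all genes. Of the 9 members called between the ages below, 7 were in the table and 4 held a full match. The 160 bases before the start are shown for 5 members, 5′ to 3′ on the gene's strand, with full matches in capitals. Isg15 (chr4:156200819-156200978, minus strand) holds overlapping matches, and Ifit1 (chr19:34640729-34640888, plus strand) and Ifit3 (chr19:34583369-34583528, plus strand) hold separate ones. Bst2 (chr8:71537473-71537632, minus strand) holds an overlapping pair. Samd9l (chr6:3399572-3399731, minus strand), which changed with age, is shown because these letters are not in its window.
Isg15: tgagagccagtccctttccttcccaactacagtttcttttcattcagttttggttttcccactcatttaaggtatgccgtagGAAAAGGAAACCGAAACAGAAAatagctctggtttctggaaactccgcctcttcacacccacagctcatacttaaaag
Ifit1: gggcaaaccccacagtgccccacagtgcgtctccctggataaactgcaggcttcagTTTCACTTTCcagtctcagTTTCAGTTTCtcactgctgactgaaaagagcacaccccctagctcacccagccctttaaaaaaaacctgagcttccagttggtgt
Ifit3: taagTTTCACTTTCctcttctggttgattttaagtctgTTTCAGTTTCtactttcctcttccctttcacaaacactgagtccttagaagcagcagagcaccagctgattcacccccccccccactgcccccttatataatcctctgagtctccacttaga
Bst2: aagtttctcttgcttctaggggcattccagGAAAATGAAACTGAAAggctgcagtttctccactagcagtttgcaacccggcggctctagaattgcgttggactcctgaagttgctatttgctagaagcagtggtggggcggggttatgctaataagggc
Samd9l: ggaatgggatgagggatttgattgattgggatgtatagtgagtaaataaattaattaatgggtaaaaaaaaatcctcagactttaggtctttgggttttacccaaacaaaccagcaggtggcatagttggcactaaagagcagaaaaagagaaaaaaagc

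Pools held 760 to 1590 cells, of which 475 to 1186 were microglia, with 5745242 to 13742781 raw UMIs (counted RNA molecules) per pool. The microglia had a median of 6411 to 7304 raw UMIs per cell. Young and aged pools were run in separate wells of the 10x instrument, so age and well cannot be told apart, and 59 barcode sequences occurred in both wells. Hashtags 1 to 3 marked control and 4 to 6 antibiotic pools, so hashtag and arm cannot be told apart either. The authors' microglia carried their defining markers: outside the high cells described later, P2ry12 was above 0 in 99.6% of them, Cx3cr1 in 99.9% and Siglech in 98.7%. The summed values of markers of other cell types in the microglia differed by pool. The summed value of 5 neutrophil markers was 2.23 to 20.2 in young and 0.625 to 3.01 in aged pools, and that of 5 B cell markers was 1.73 to 2.07 and 2.58 to 3.94. For 6 T cell markers the sum was 0.0137 to 0.0213 in young and 0.0520 to 0.153 in aged pools, and for 5 monocyte markers 0.861 to 1.45 and 1.39 to 1.84. The monocyte sum was mostly Nr4a1, which averaged 1.12 and was above 0 in 38.2% of microglia outside the high cells. Ly6c2, Ccr2, Plac8 and Ace averaged 0.00962 to 0.0552 there, so this sum cannot be read as monocyte RNA. The differences in these sums run along with age, and their part in the age results was not tested beyond the cells left out next. Of the microglia, 63 carried clear markers of neutrophils, monocytes (Nr4a1 not counted) or border-associated macrophages. Results without these cells, a choice made after seeing the data, are given below for several counts, the score and the shares.

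Between the control groups, 9 of the 31 members with a mean of at least 0.05 in microglia were higher in aged pools and 0 were lower (limma, adjusted p under 0.05). Of all 8759 genes tested, 2.66% were called. A change was positive for 30 of the 31 members, with a median log2 change of 0.26 against 0.02 over all genes. The aged control pools lay wholly above the young control pools for 18 members, which held for 12.6% of all genes. The 31 members include Samd9l, Oasl2, Ifit2, Rsad2 and Usp18, whose means passed the filter only through the aged pools. These counts are therefore not independent of the filter. The other 8 members, Ifit1, Ifit3b, Oasl1, Oas1a, Ifi44, Zbp1, Cmpk2 and Mx1, had means of 0.00379 to 0.0491 over the pools and were left out by the filter. With no filter all 39 were tested, of which 38 had higher values in aged pools, with a median log2 change of 0.29 against 0.006 over all genes. Of the 39, 4 were called, none of them among these 8, while 125 of all genes were called higher and 20 lower. In pool means such as these, more cells with the RNA and more RNA per cell cannot be told apart, and values are the authors' corrected UMI values averaged over the microglia of a pool.

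Samd9l, an antiviral effector and restriction factor, averaged 0.0260, 0.0279 and 0.0347 in the young control pools and 0.0776, 0.0781 and 0.0808 in the aged control pools. The groups did not overlap, with a log2 change of 0.70 (SE 0.10, adjusted p = 0.000625). Its mean over all pools passed the filter of 0.05 only through the aged pools, as did those of Oasl2, Ifit2, Rsad2 and Usp18, so these members could pass only if they were higher there. With no filter Samd9l was still called (adjusted p = 0.00659) and Oasl2 was not. Ifi204, a DNA sensor of the Ifi200 family, averaged 0.163, 0.166 and 0.157 in young and 0.287, 0.372 and 0.317 in aged control pools. Every aged pool was above every young one, with a log2 change of 0.82 (SE 0.13, adjusted p = 0.00132). Ifi27l2a, a small protein strongly induced by interferon, averaged 0.306, 0.336 and 0.353 against 0.566, 0.613 and 0.594, again without overlap. Its log2 change was 0.75 (SE 0.12, adjusted p = 0.00141). Ifi204 and Ifi27l2a kept their call in 23 of 23 alternatives, and Samd9l in the 20 in which it passed the filter.

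Among membrane proteins, Bst2 (tetherin), which holds budding virus at the cell surface, was the most abundant member in microglia. It averaged 1.02, 1.11 and 1.05 in young control pools and 1.23, 1.37 and 1.35 in aged control pools, a small and narrow rise of 0.30 (SE 0.06, adjusted p = 0.00907) on the log2 scale. Ifitm3, which blocks viral entry at endosomes, rose by 0.57 (SE 0.13, adjusted p = 0.0213), while its neighbour in the genome and near copy Ifitm2 changed by 0.05 (SE 0.13, adjusted p = 0.932). Ifitm3 averaged 0.323, 0.397 and 0.268 and 0.442, 0.573 and 0.522 in the 2 groups, again with no overlap. Reads of near-identical pairs such as Ifitm2 and Ifitm3, Ifit3 and Ifit3b, or Ifi204 and its family may have been split between copies, so their values are uncertain.

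In the IFIT family, whose proteins bind viral RNA, Ifit3 averaged 0.0921, 0.0623 and 0.0786 in young and 0.125, 0.211 and 0.164 in aged control pools. The lowest aged pool was above the highest young one, and the log2 change was 0.75 (SE 0.16, adjusted p = 0.0103). In the OAS family of nucleic acid-activated proteins, Oasl2 averaged 0.0347, 0.0475 and 0.0398 and 0.0701, 0.0842 and 0.0709, a rise of 0.46 (SE 0.10, adjusted p = 0.0142). Slfn5, a Schlafen regulator of transcription and growth, averaged 0.0726, 0.0885 and 0.0724 in young and 0.115, 0.175 and 0.152 in aged control pools and rose by 0.62 (SE 0.14, adjusted p = 0.0199). The most abundant Schlafen, Slfn2, averaged 0.376, 0.461 and 0.362 and 0.415, 0.564 and 0.461 in young and aged control pools, and the groups overlapped (log2 0.23, SE 0.11, adjusted p = 0.349). Phf11b, a PHD finger protein, averaged 0.117, 0.138 and 0.140 and 0.185, 0.196 and 0.166 and rose by 0.36 (SE 0.09, adjusted p = 0.0418).

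Besides Ifi204, none of the 7 other transducers and sensors tested was called. Irf9, the DNA-binding subunit of the STAT complex, averaged 0.224, 0.220 and 0.242 in young and 0.267, 0.302 and 0.306 in aged control pools. These groups did not overlap, but the log2 change of 0.29 (SE 0.09, adjusted p = 0.0937) did not pass. Stat2 changed by 0.10 (SE 0.09, adjusted p = 0.717) and Irf7, the factor that amplifies interferon production, by 0.38 (SE 0.12, adjusted p = 0.128), neither past the threshold. Eif2ak2, the kinase PKR that halts translation on double-stranded RNA, averaged 0.216, 0.259 and 0.267 and 0.269, 0.288 and 0.283. It was higher in each aged pool than in each young one, with a log2 change of 0.15 (SE 0.08, adjusted p = 0.457) that did not pass.

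Isg15, a ubiquitin-like modifier, averaged 0.121, 0.103 and 0.111 in young and 0.151, 0.217 and 0.195 in aged control pools. The groups did not overlap, but the aged pools were spread and the log2 change of 0.54 (SE 0.17, adjusted p = 0.113) did not pass. Rsad2 (viperin), the most abundant of the nucleotide and RNA effectors, averaged 0.0390, 0.0262 and 0.0541 and 0.0343, 0.0398 and 0.0930, and its high aged value came from 1 pool. Lgals9, the galectin of highest level, averaged 0.637, 0.674 and 0.646 and 0.693, 0.706 and 0.673, a change of 0.08 (SE 0.07, adjusted p = 0.733). Trim30a, a regulator of innate signalling and the most abundant of the remaining members, averaged 0.560, 0.451 and 0.565 and 0.587, 0.631 and 0.623. Neither of the last 2 passed.

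Of the other called members, the call held for Bst2 in 21 of 23 alternatives, Ifit3 in 18 of 22, Oasl2 in 17 of 22, Ifitm3 in 16 of 23, Slfn5 in 16 of 22 and Phf11b in 12 of 22. The count of 9 rests on some pools and settings. It was 3 without aged control pool 2, 4 without young control pool 1, 5 without young control pool 3, 3 among microglia with 4000 to 10000 raw UMIs, and 4 both with no filter and with a filter at a mean of 0.2.

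**Figure D1:**
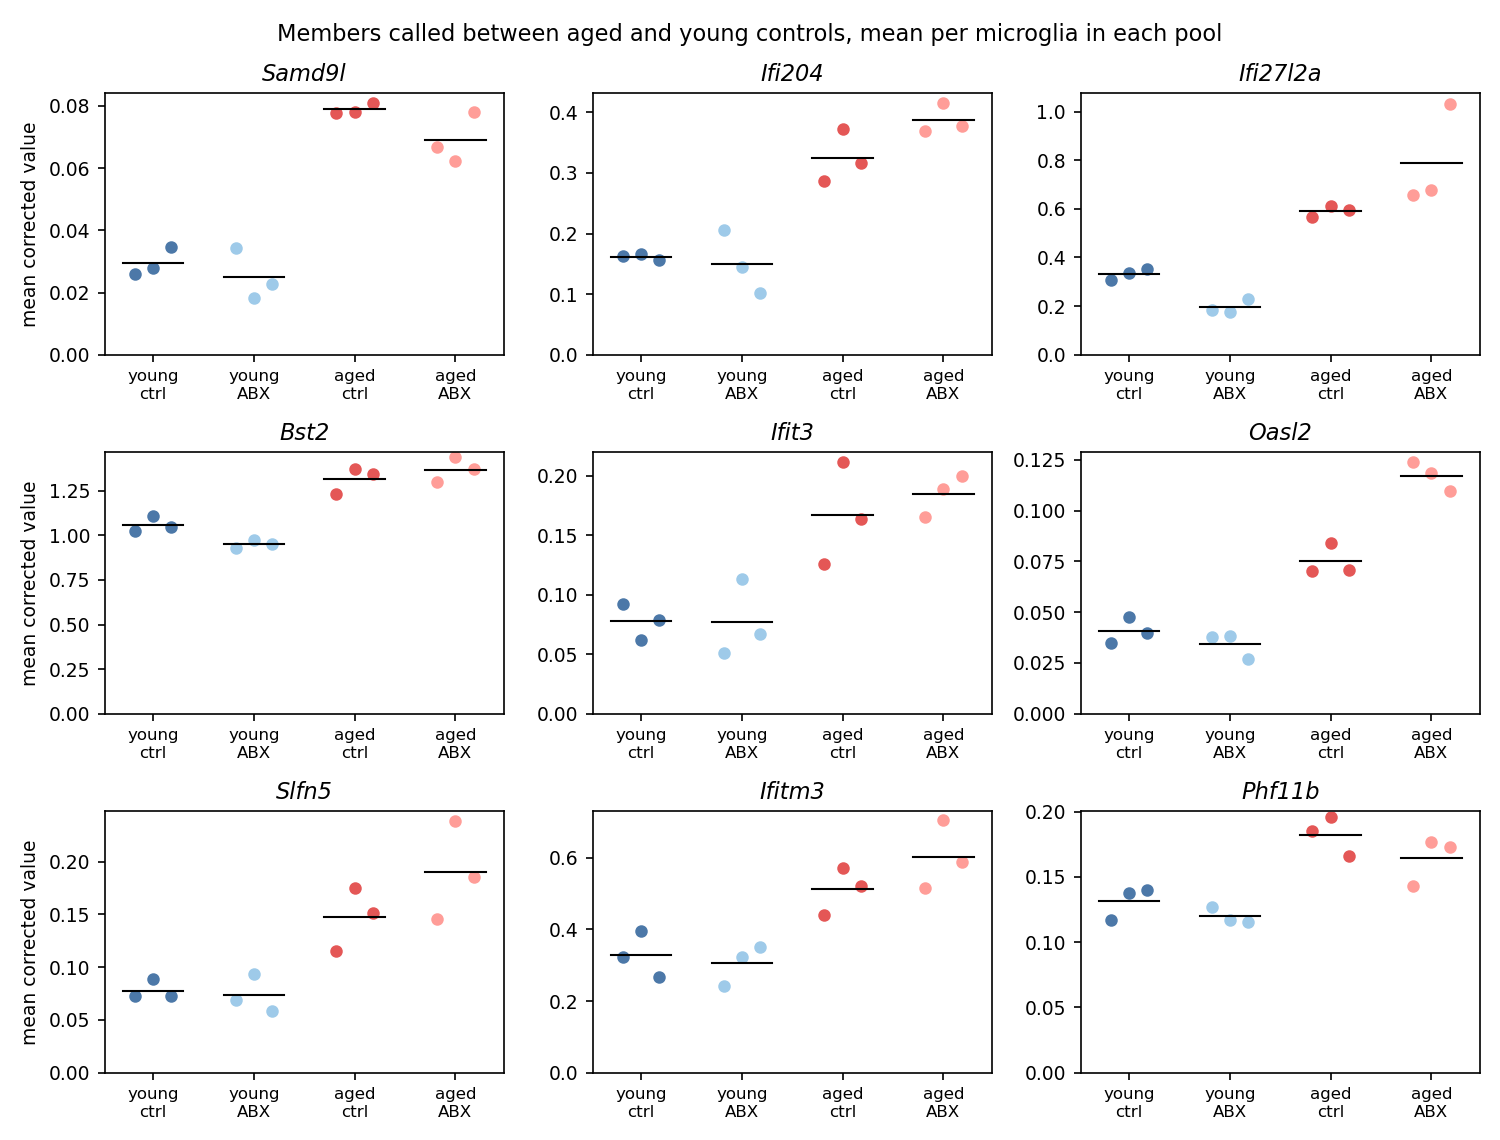
Mean corrected value per microglia (linear axis from 0) of the 9 members called between aged and young controls, in the 3 pools of each group; points are pools and lines group means, and ctrl is control and ABX antibiotic. All 3 aged control pools lie above all 3 young control pools in each panel, and Ifi27l2a is the panel in which the antibiotic pools leave the controls downward in young and upward in aged mice.

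Antibiotics lowered 1 of the 31 members in young microglia, Ifi27l2a, and raised 0. Of all genes, 0.137% were called in this contrast. Ifi27l2a averaged 0.185, 0.176 and 0.229 in the young antibiotic pools, all below the 3 young control values above, with a log2 change of -0.63 (SE 0.12, adjusted p = 0.0467). The call was lost in 12 of 22 alternatives, among them leaving out any 1 of the 3 young control pools, young antibiotic pool 1 or 2, or aged control pool 1 or 3 (adjusted p 0.0526 to 0.20). Changes were negative for 24 of 31 members, with a median of -0.09 against -0.02 over all genes. The antibiotic pools lay wholly below the control pools for 6 members, against 9.56% of all genes. Bst2 was among these 6, at 0.926, 0.976 and 0.95 (log2 -0.15, SE 0.06, adjusted p = 0.380), and did not pass. Xaf1, a pro-apoptotic interferon target, was another, at 0.111, 0.129 and 0.113 against 0.178, 0.148 and 0.166 in controls (log2 -0.35, SE 0.10, adjusted p = 0.165).

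In aged microglia the antibiotic contrast called 1 of 31 members, Oasl2, which rose. Of all genes, 3.23% were called. Oasl2 averaged 0.124, 0.119 and 0.109 in the aged antibiotic pools, all above the aged control values, with a log2 change of 0.42 (SE 0.10, adjusted p = 0.0271). The call was lost in 7 of 21 alternatives, among them without aged control pool 1 or 3 or aged antibiotic pool 1 or 2 (adjusted p 0.0705 to 0.0902). It was also lost among microglia with 4000 to 10000 raw UMIs and with no filter, where 0 of 39 members were called. Oasl2 passed the filter only through the aged pools, which include the antibiotic pools in which it was called higher. The call of Oasl2 is therefore not independent of the filter. Without aged antibiotic pool 1, Lgals9 and Lgals3bp passed in its place. Changes were positive for 24 of 31 members, with a median of 0.19 against -0.01 over all genes. Among 28 further interferon-stimulated genes, from the separate list described below, 13 were higher and 15 lower, with a median of -0.005. The antibiotic pools lay wholly above the control pools for 4 members, against 10.1% of all genes.

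Lgals9 averaged 0.730, 0.864 and 0.918 in the aged antibiotic pools, also without overlap, and its log2 change of 0.26 (SE 0.07, adjusted p = 0.0559) lay just outside the threshold. Lgals3bp, a secreted glycoprotein that binds galectins, averaged 0.724, 0.997 and 1.05 against 0.672, 0.821 and 0.640 in aged controls (log2 0.35, SE 0.11, adjusted p = 0.0764), and the groups overlapped. Isg15 averaged 0.157, 0.271 and 0.217 in aged antibiotic pools and 0.0993, 0.183 and 0.0877 in young antibiotic pools, and at both ages these overlapped the controls. Ifit3 averaged 0.0514, 0.113 and 0.0666 in young and 0.165, 0.189 and 0.20 in aged antibiotic pools, again overlapping the controls. Slfn2, at 0.330, 0.361 and 0.343 in young and 0.481, 0.574 and 0.636 in aged antibiotic pools, changed by -0.18 (SE 0.11, adjusted p = 0.577) and 0.21 (SE 0.11, adjusted p = 0.289).

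None of the remaining abundant members of each role was called in either age. Irf9 averaged 0.20, 0.227 and 0.263 in young and 0.283, 0.311 and 0.269 in aged antibiotic pools, overlapping the controls at each age. Eif2ak2 averaged 0.305, 0.252 and 0.288 and 0.338, 0.318 and 0.335. In the aged mice these Eif2ak2 values were all above the controls. Trim30a averaged 0.447, 0.428 and 0.489 in young and 0.583, 0.581 and 0.596 in aged antibiotic pools. Rsad2 averaged 0.0103, 0.0762 and 0.0413 and 0.0683, 0.109 and 0.0989, with wide spread within the young antibiotic group. Bst2 in aged antibiotic pools averaged 1.30, 1.44 and 1.37, overlapping the aged controls, and Lgals9 in young antibiotic pools averaged 0.693, 0.666 and 0.653.

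Over both ages together the antibiotic contrast called 0 of 31 members (limma), while 5.4% of all genes were called. At an unadjusted p under 0.05, 4 members were higher and 1 lower, against 730 higher and 1122 lower of all 8759 genes. The members of smallest p were Eif2ak2 (log2 0.18, SE 0.06, adjusted p = 0.0737) and Lgals9 (log2 0.15, SE 0.05, adjusted p = 0.0947). Comparing the antibiotic effects of the 2 ages with each other also called 0 members and 0% of all genes. At an unadjusted p under 0.05 the difference was positive for 8 members and negative for 0, against 349 and 230 of all 8759 genes. That difference was positive, meaning a higher antibiotic effect in aged mice, for 28 of 31 members, with a median of 0.20 against 0.01 over all genes. Ifi27l2a was the 1 member whose pools were separated in opposite directions at the 2 ages, against 0.308% of all genes separated in this sense. It averaged 0.657, 0.676 and 1.03 in the aged antibiotic pools, all above the aged controls. Its difference was 0.99 (SE 0.17, adjusted p = 0.141), and that of Xaf1, next by p, 0.59 (SE 0.14, adjusted p = 0.249). The difference for Ifi27l2a passed without the 63 microglia that carried markers of other types (1.15, adjusted p = 0.0122, a choice made after seeing the data) and when any 1 of the aged antibiotic pools was left out. Without aged antibiotic pool 1, Lgals3bp passed too. Over both ages 1 member passed without young antibiotic pool 2, aged antibiotic pool 1 or aged antibiotic pool 3.

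**Figure D2:**
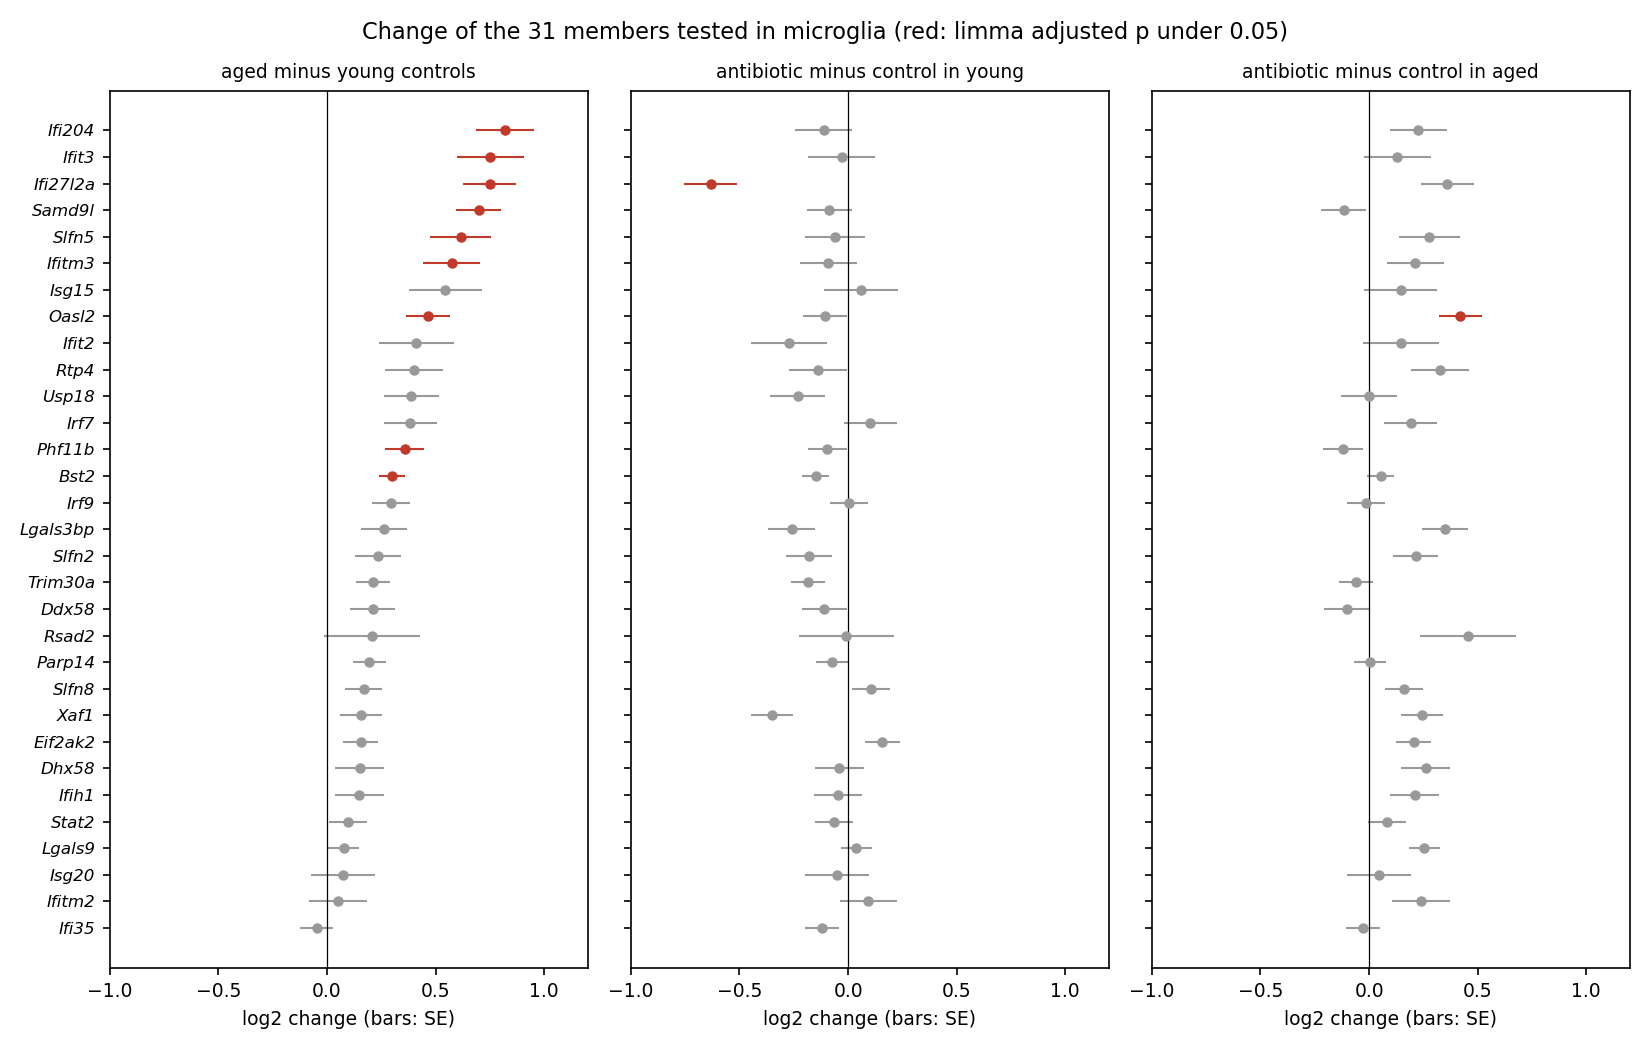
Log2 change (dots, with SE bars) of the 31 tested members in microglia for age in controls and for antibiotics at each age; red marks limma adjusted p under 0.05 and members are ordered by the age change. Of the 31, 30 lie right of 0 for age, 24 lie left of 0 for antibiotics in young and 24 lie right of 0 for antibiotics in aged mice; the age contrast shares its control pools with the other 2.

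A score, the mean over the 31 members of log2(mean value + 0.05), sums up these levels and was not tested, since the members were chosen with earlier results known. Among young mice it was -2.21, -2.20 and -2.17 in control and -2.34, -2.21 and -2.31 in antibiotic pools. Among aged mice it was -2.0, -1.78 and -1.82 in control and -1.83, -1.64 and -1.67 in antibiotic pools. All aged pools were above all young pools, and the antibiotic and control pools overlapped in aged mice and met at -2.21 in young mice. Among microglia with 4000 to 10000 raw UMIs the young pools were apart, at -2.29 to -2.25 in control and -2.46 to -2.39 in antibiotic pools.

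Other genes of the pathway, from a separate list, were tested in the same fits. Of 5 receptor genes tested, Ifngr1, a subunit of the interferon gamma receptor, was lower in aged controls (log2 -0.24, adjusted p = 0.0230) and the other 4 were not called. None of 10 signal genes and none of 9 sensor genes tested was called between the ages by limma. At an unadjusted p under 0.05, 2 signal genes and 0 sensor genes were higher, against 796 higher and 340 lower of all 8759 genes. Of 28 further interferon-stimulated genes, Sp100, a nuclear body protein, rose (log2 0.51, adjusted p = 0.00231), as did Cd274, which encodes PD-L1 (log2 0.52, adjusted p = 0.0323). Gbp7, a guanylate-binding protein, was lower (log2 -0.34, adjusted p = 0.00768). The median of these 28 was 0.17. With antibiotics in aged mice 13 of the 28 were higher and 15 lower, with a median of -0.005 against -0.005 over all genes. In young mice 8 were higher and 20 lower (median -0.09 against -0.02 over all genes). Over both ages 10 were higher and 18 lower (median -0.04 against -0.01 over all genes). Antibiotics lowered Irf8, a myeloid transcription factor, in aged mice (log2 -0.34, adjusted p = 0.00610) and over both ages (log2 -0.26, adjusted p = 0.00215). Over both ages they also lowered Il10rb, a shared cytokine receptor chain (log2 -0.21, adjusted p = 0.00436), and raised Irgm1, an immunity-related GTPase (log2 0.22, adjusted p = 0.0248). Of 18 ligand genes 2 were in the table, and neither reached a mean of 0.05 in microglia.

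Microglia differed widely in the summed value of the 39 members. The median cell had a sum of 6 and the highest 257. The 460 microglia above the 95th percentile, a sum of 23, are called high microglia here. This is a range of a score and not a cell type, and 234 cells lay within 3 of the limit. High microglia had a median of 16 different members detected against 4 in the others, and a median of 8245 raw UMIs against 6876. Microglia markers were present and lower on average over the cells of all pools together, with Tmem119 at 7.59 against 8.12 in the others, P2ry12 at 7.67 against 10.8 and Sall1 at 1.37 against 1.45. Such means mix the pools, and young and aged pools are unequally represented among high microglia. Within pools the sum of 6 microglia markers was higher in high microglia in young control pool 1 (104 against 101) and aged antibiotic pool 1 (97.7 against 91.4). It was lower in the others. Several markers of other types had higher means in high microglia, with medians of 0: Plac8 of monocytes at 0.487 against 0.0552 in the others, Ly6c2 at 0.163 against 0.0274, Ly6d of plasmacytoid dendritic cells at 0.196 against 0.0253, Igkc of B cells at 0.722 against 0.469 and Pf4 of border-associated macrophages at 0.0435 against 0.0130. Some markers of the same lists were lower. Cd79b and Ighm of B cells averaged 0.224 against 0.231 and 1.53 against 1.68. Tcf4 of plasmacytoid dendritic cells averaged 1.91 against 1.93, and Cbr2 of border-associated macrophages 0.00652 against 0.00749. Ly6d was above 0 in 1.09% of high and 1.10% of other microglia. S100a8 of neutrophils averaged 9.87 against 1.26 but was above 0 in 23.7% of high and 27.7% of other microglia. The summed value of the 5 neutrophil markers in high microglia was 157 in young antibiotic pool 2, 264 in young antibiotic pool 3 and 25.9 in aged antibiotic pool 2, and at most 3.20 in the other 9. Of the 63 microglia that carried markers of other types, 20 were among the 460 high ones, and shares without the 63 are given next.

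High microglia were a larger share in aged than in young mice. They made up 2.82, 3.77 and 3.67% of the microglia in the young control pools (3.42% ± 0.525, SD, n = 3) and 4.63, 6.74 and 6.20% in the aged control pools (5.86% ± 1.10, SD, n = 3). Young antibiotic pools held 1.71, 3.02 and 2.53% (2.42% ± 0.662, SD, n = 3) and aged antibiotic pools 7.14, 7.98 and 11.4% (8.83% ± 2.24, SD, n = 3). Aged control pools were all above young control pools. Whether antibiotic and control pools separate depends on how high cells are chosen. With the limit above, the aged groups did not overlap and the young groups did. At the 90th percentile the aged groups overlapped (lowest antibiotic pool 12.5%, highest control pool 14.2%), as they did at the 99th and without Ifi27l2a, Bst2, Lgals3bp, Lgals9, Ifitm2 and Ifitm3, which hold 42.0% of the sum. In the young mice the antibiotic pools were all below the control pools at the 90th percentile (6.07% and 6.28%), without those 6 members, by the number of members detected, among microglia with 4000 to 10000 raw UMIs and without cells carrying markers of other types. Exact 95% binomial intervals, which cover counting error only, overlapped between single pools of neighbouring groups, for example 5.26% to 9.44% for aged antibiotic pool 1 and 4.94% to 8.94% for aged control pool 2. Without the 63 cells with markers of other types, and with the limit set again, the group means were 3.54% and 2.13% in the young mice without and with antibiotics, and 6.29% and 9.10% in the aged mice. Among microglia with 4000 to 10000 raw UMIs the antibiotic and control means of aged mice differed by 1.64 percentage points in place of 2.97. Without aged antibiotic pool 3 that difference was 1.70, and without young antibiotic pool 1 the difference in young mice was -0.644. Without the 6 members the aged means were 5.92% in control and 7.78% in antibiotic pools.

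**Figure D3:**
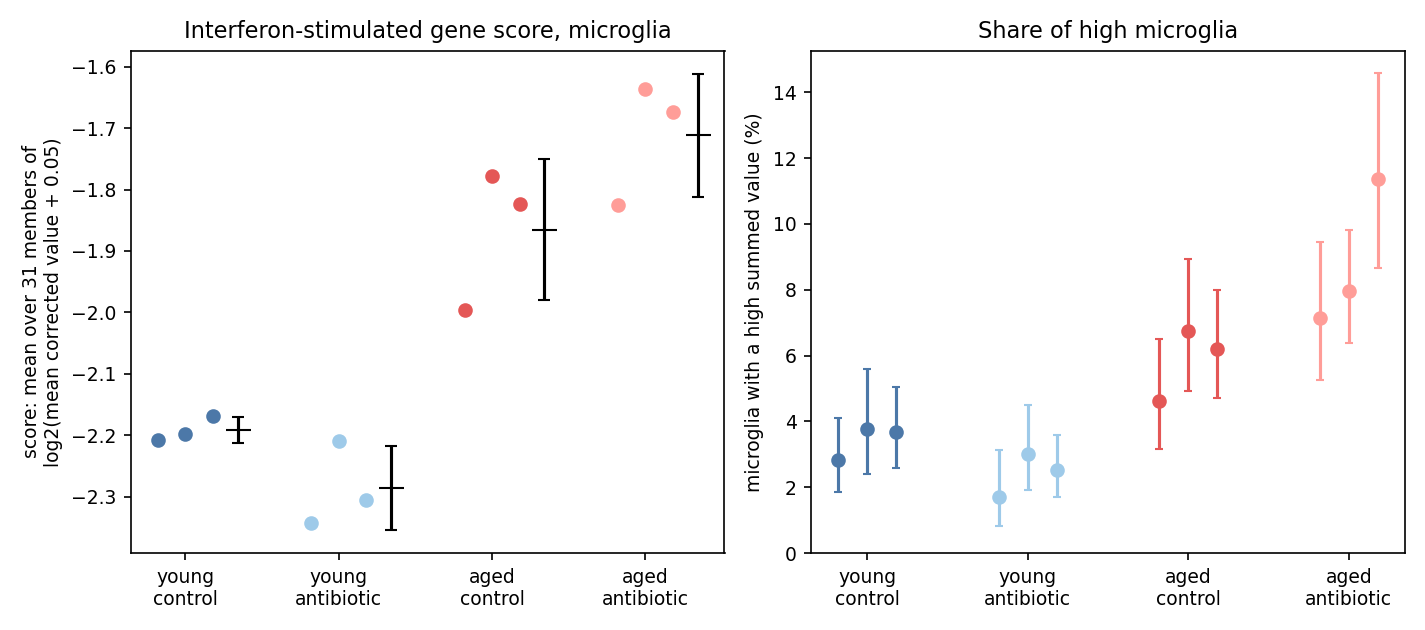
Left, the score of the 31 tested members in microglia of each pool (points; bars are the group mean and SD); right, the percentage of microglia with a summed value above 23 in each pool, with exact 95% binomial intervals. The aged pools lie above the young pools in both panels, and the share is highest in the aged antibiotic pools, at 7.14, 7.98 and 11.4%.

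High microglia carried most of the difference in the control means between the ages, and the other microglia the rest. The summed value over all members averaged 7.31 per microglia in young control and 9.52 in aged control mice, and 62.0% of this difference was carried by the high microglia. For Ifit3 that part was 84.9% and for Oasl2 71.6%, whereas for Samd9l, Ifi27l2a and Bst2 it was 44.5%, 45.1% and 49.3%. These parts describe the cells as cut by the members themselves. Among the other microglia the summed value still averaged 6.02 and 5.78 in young mice without and with antibiotics, and 7.07 and 7.53 in aged mice.

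Members differed in how often they were detected outside high cells, a description since these values made the class. Ifit3 was above 0 in 52.4% of high and 2.95% of other microglia, Rsad2 in 22.4% and 1.17%, and Irf7 in 47.0% and 2.88%. Rtp4, a chaperone of receptor transport, was above 0 in 65.2% and 6.70%. Bst2, by contrast, was above 0 in 89.6% and 61.6%, and Lgals9 in 69.6% and 44.6%. No cell type here is known to lack these genes, so a level set by free RNA could not be given.

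Outside the 39 members, 443 of 8880 genes (4.99%) differed between high and other microglia of the same pool (limma with pool as a block, adjusted p under 0.05), 341 higher and 102 lower. High microglia had more raw UMIs, as given above. Among microglia with 4000 to 10000 raw UMIs, with 11 pools, 330 of 8730 genes were called, 191 higher and 139 lower. The median change over all genes was -0.06 there and 0.02 without this limit, so the excess of rises was smaller there. With all microglia, the largest rises that had the same direction in 12 of 12 pools included many known interferon targets. The class was cut on interferon-stimulated members, so genes regulated with them, or relatives whose reads may be split with theirs, are not independent of the cut. Their rises describe the class. Ifi207, a relative of Ifi204, averaged 0.691 ± 0.296 in high and 0.0257 ± 0.0118 in other microglia (SD over 12 pools; log2 3.20, SE 0.15, adjusted p = 4.69e-14). Ccl12, a monocyte-attracting chemokine, averaged 9.99 ± 3.24 in high and 2.32 ± 0.420 in other microglia (SD over 12 pools; log2 2.03, SE 0.11, adjusted p = 6.11e-13).

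Also among the 10 largest rises were Sp100 (log2 2.39), Ifi209 (2.28), Ifi206 (2.23), Rnf213 (2.12), an antimicrobial ubiquitin ligase, Phf11d (2.05), Cybb (2.02), the catalytic subunit of the phagocyte NADPH oxidase, and Irgm1 (1.96). The 5 largest falls were Ttr (log2 -1.28), the transthyretin made by choroid plexus, Ddit4 (-1.15), an inhibitor of mTOR signalling, Khdrbs3 (-0.82), an RNA-binding protein, the transcription factor Sox4 (-0.73) and Klhdc8b (-0.67). Among microglia with 4000 to 10000 raw UMIs the change of Ttr was 0.11 (adjusted p = 0.737). The other genes named here as the largest rises and falls held their call and direction in 18 of 18 alternatives.

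Of the listed pathway genes outside the members, 36 of 39 further interferon-stimulated genes were higher in high microglia and 0 lower. Since the class was cut on genes of the same kind, this count describes the class and is not separate support for it. Cxcl10, a chemokine for T cells, averaged 5.04 ± 4.26 in high and 0.814 ± 0.287 in other microglia (SD over 12 pools; log2 1.93, SE 0.32, adjusted p = 0.000258), and was higher in 10 of 12 pools. Of the signal genes, Irf1, Irf5 and Irf8 were higher and Socs3, a feedback inhibitor, was lower (log2 -0.31). Of 9 sensor genes, Adar, Samhd1, Tlr3 and Mb21d1, which encodes cGAS, were higher. Of 5 receptor genes, Ifngr1 was lower (-0.22), and Ifnar1, a chain of the type I receptor, differed by -0.01 (SE 0.12, adjusted p = 0.985). Of the ligands, Ifnb1 was the 1 tested. It averaged 0.133 in high and 0.00338 in other microglia but was higher in 3 of 12 pools and was not called (adjusted p = 0.303).

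**Figure D4:**
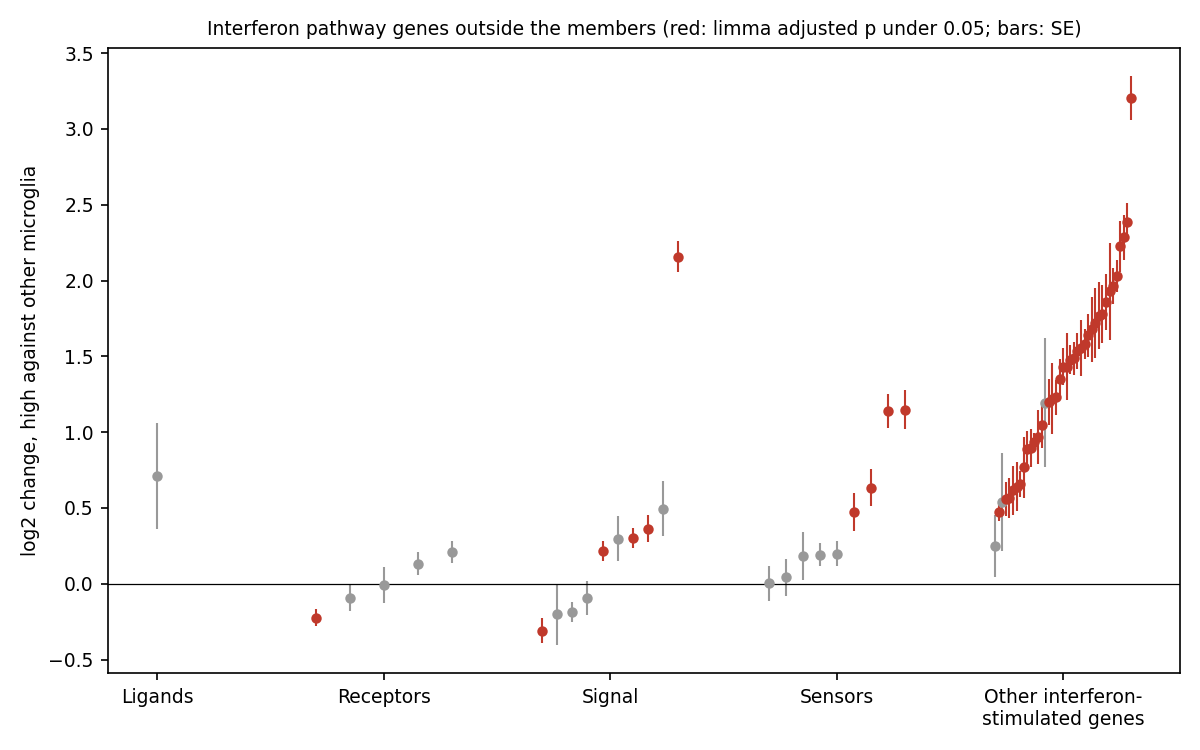
Log2 change (dots, with SE bars) of interferon pathway genes outside the 39 members between high and other microglia of the same pools, by list; red marks limma adjusted p under 0.05. The further interferon-stimulated genes lie above 0, with 36 of 39 called, while receptors lie near 0.

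The antibody tags, which were not used to define the high microglia, were compared as shares of all tags within each pool with edgeR's quasi-likelihood test. Microglia had a median of 1130 to 1303 tags per cell in young pools but 153 to 178 in aged pools. The high microglia numbered 85 and 63 in young control and antibiotic pools and 131 and 181 in the aged ones, so most had few tags. Of 34 antibodies, 12 were called (35.3%). The integrin CD11c was higher in high microglia by a log2 value of 0.62 (adjusted p = 0.00811, within-pool differences of -0.20 to 1.49), and in 11 of 12 pools. The costimulatory ligand CD86 was higher by a log2 value of 0.25 (adjusted p = 0.00811, within-pool differences of -0.29 to 0.41), and the leukocyte antigen CD45 by a log2 value of 0.22 (adjusted p = 0.00265, within-pool differences of 0.03 to 0.36), in 12 of 12 pools. The checkpoint ligand PD-L1, a known interferon target, was higher by a log2 value of 0.24 (adjusted p = 0.0390, within-pool differences of -0.21 to 0.74) in 10 of 12 pools, and the RNA for it, Cd274, was higher as well (log2 0.77).

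The 8 antibodies with lower shares were CD8a (log2 -0.35), CD4 (-0.43), Ly6C (-0.35), TMEM119 (-0.26), CD38 (-0.23), CX3CR1 (-0.22), B220 (-0.20) and SIRPa (-0.15). CD4, CD8a and B220 are antigens that microglia are not known for, and the tags sum to a fixed whole, so a rise of some lowers the others. CD169, a sialic acid receptor induced by interferon, changed by 0.12 (adjusted p = 0.232) and the Fc receptor CD64 by 0.07 (adjusted p = 0.542), neither called. CD45, CD86, CD11c and CD8a kept their call in 16 of 16 alternatives and PD-L1 in 15, whereas the other 7 kept it in 4 to 8. CD169 was called in 7 of 16 and CD64 in 3. Without young antibiotic pool 2 the number called was 7.

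For most members another cell type had the highest level. Of 9 types with pools of at least 10 cells, microglia ranked last or next to last for 18 of 39 members and first for 1, Lgals9. Types were not tested against each other, since they were made from the same RNA. Border-associated macrophages (BAM), which line the meninges and vessels, had the highest level of 12 members, CD8+ T cells of 10, Ly6CHigh monocytes of 9, Ly6C+Ly6G+ cells of 5 and Ly6CLow cells of 2. For each of the 39, the pool ranges of the leading type and the next overlapped.

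In BAM, Bst2 averaged 4.84 ± 0.693 (SD, n = 12) over pools, against 1.17 ± 0.188 (SD, n = 12) in microglia, and the ranges of 4.08 to 6.45 and 0.926 to 1.44 did not meet. Ifi204 averaged 1.95 ± 0.455 (SD, n = 12) in BAM and 0.256 ± 0.111 (SD, n = 12) in microglia. The other 10 members highest in BAM were Eif2ak2, Ifit2, Irf9, Lgals3bp, Oasl2, Parp14, Rtp4, Stat2, Trim30a and Usp18, and for Trim30a the BAM and microglia levels were 0.619 ± 0.183 (SD, n = 12) and 0.545 ± 0.0716 (SD, n = 12). Ly6CHigh monocytes had the highest single level, Ifitm3 at 24.6 ± 10.5 (SD, n = 11), followed by Ifitm2 at 10.3 ± 3.57 (SD, n = 11) and Ifi27l2a at 7.62 ± 4.40 (SD, n = 11). In microglia these 3 averaged 0.438 ± 0.144 (SD, n = 12), 0.138 ± 0.0283 (SD, n = 12) and 0.477 ± 0.256 (SD, n = 12). Depth differed among the Ly6CHigh pools. Their median raw UMIs per cell were 605 in aged antibiotic pool 3, 647.5 in aged control pool 1 and 6283 to 14748.5 in the others. For Ly6C+Ly6G+ cells the median was 763 in aged antibiotic pool 3.

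Dhx58, Ifih1, Irf7, Oas1a, Slfn5 and Zbp1 were also highest in Ly6CHigh cells. CD8+ T cells led for Isg15, at 0.758 ± 0.391 (SD, n = 11), and Ifit3, at 0.528 ± 0.324 (SD, n = 11), and also for Ifit1, Ifit3b, Isg20, Ddx58, Ifi35, Mx1, Slfn8 and Xaf1. Ly6C+Ly6G+ cells led for Slfn2, a Schlafen needed for quiescence of immune cells, at 3.56 ± 0.639 (SD, n = 9), and for Samd9l, Rsad2, Cmpk2 and Oasl1. Ly6CLow cells led for Phf11b and Ifi44. Lgals9 averaged 0.713 ± 0.0879 (SD, n = 12) in microglia and 0.495 ± 0.122 (SD, n = 12) in BAM, the next type.

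**Figure D5:**
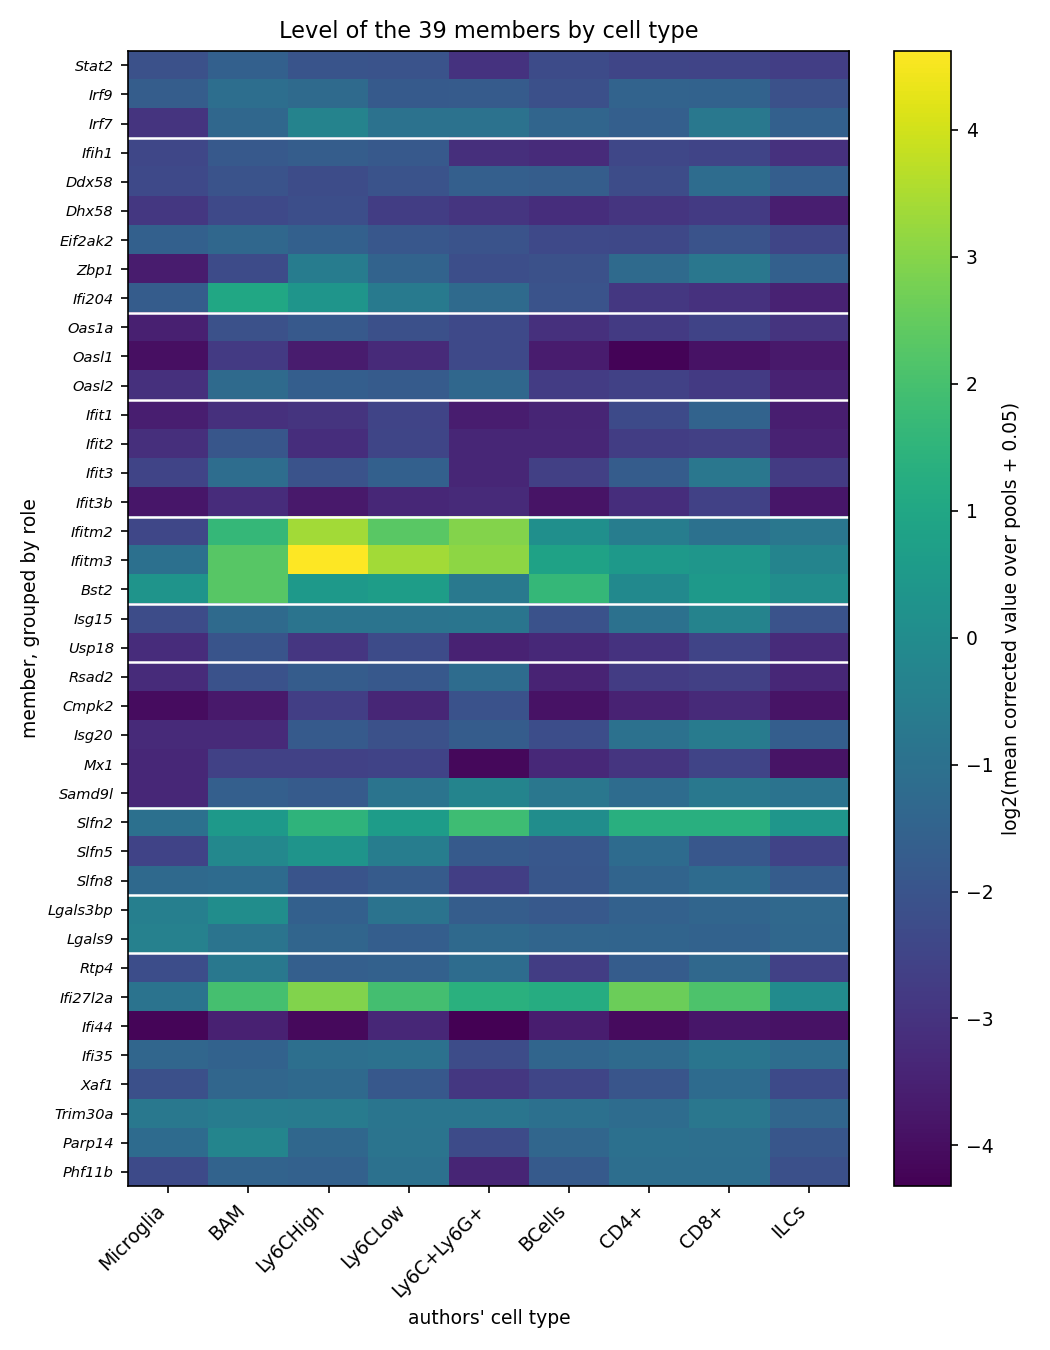
Heat map of the level of each of the 39 members (rows, grouped by role) in the authors' cell types (columns), as log2(mean corrected value over pools + 0.05). Microglia rank last or next to last for 18 of the 39 members, and Ifitm3 in Ly6CHigh cells is the brightest field.

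Outside microglia, 1 member was called in the 8 types fitted by limma. In innate lymphoid cells (ILCs), Ifi27l2a averaged 0.125, 0.440 and 0.250 in young control and 3.00, 3.11 and 0.806 in aged control pools. The share of ILCs above 0 was 6.25, 12.0 and 9.38% in the young and 9.09, 42.5 and 6.45% in the aged control pools, so that outside aged control pool 2 the higher means rest on 1 or 2 cells a pool. The groups did not overlap in means, with a log2 change of 2.78 (adjusted p = 0.0275). The call was lost with at least 20 cells a pool, and also without young control pool 1 or 3, young antibiotic pool 3, or aged control pool 1 (11 ILCs) or 2. Aged antibiotic pool 2, with 5 ILCs, was not in the fit. For age, 0.912% of all genes were called in ILCs, 0.755% in Ly6CLow, 0.241% in CD8+, 0.0596% in B cells, 0.0447% in BAM, 0.0364% in CD4+, 0% in Ly6CHigh and 0% in Ly6C+Ly6G+ cells. The 29 antibiotic fits of these types called 0 members and 0.0218% of all tested values.

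In CD8+ T cells 33 of 37 members had higher values in aged than in young controls, with a median log2 change of 0.94 against 0.05 over all genes. None passed in limma, though 2 did without young control pool 1 and 4 without young antibiotic pool 3. Pools did not overlap for 20 members, against 17.2% of all genes, in a comparison of 5 pools, since young control pool 2 held 5 CD8+ cells and was left out. Mx1, a GTPase that traps viral nucleoproteins, averaged 0 and 0 in the 2 young and 0.125, 0.108 and 0.198 in the 3 aged control pools. In young antibiotic pools, of 15 to 20 CD8+ cells each, the change from the young controls was also positive for 34 of 37 members (median 0.74, lowest adjusted p = 0.0560 in limma). The value over all genes is not reported here for that contrast. Both comparisons rest on the same 2 young control pools, which held 31 and 17 CD8+ cells, so their low means rest on few cells.

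In BAM 32 of 37 members had higher values in aged controls (median 0.46 against 0.01 over all genes), with 7 not overlapping against 5.82% of all genes, and none passed in limma. Lgals3bp, of smallest p, averaged 0.564, 0.706 and 0.772 in young and 1.08, 1.30 and 1.44 in aged control pools. The median change with age was 0.39 in ILCs, 0.32 in CD4+ T cells, 0.22 in B cells, 0.04 in Ly6CLow cells, -0.04 in Ly6C+Ly6G+ cells and -0.32 in Ly6CHigh monocytes, where the median over all genes was also -0.32. With antibiotics in aged mice the median was -0.30 in BAM, -0.09 in CD8+ cells and -0.48 in ILCs. Whether these changes differ between types was not tested, nor was the part of sequencing depth in them. In Ly6CHigh control pools the median raw UMIs per cell were 11587.5 to 14748.5 in young and 647.5, 11469 and 11613 in aged mice. For Ly6CLow cells they were 9909 to 11464.5 in young and 3432, 4750.5 and 10101 in aged control pools.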

How the data were processed

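Cell Ranger 3.0.2, Seurat 3.0.1 and the mouse genome build mm10 are named in the submitters' processing notes, without their order or settings. The deposited RNA table held the score per gene and cell that is called a corrected value here: per the file headers an SCTransform (SCT) value, a whole number that summed to the SCT total and not to the raw UMI total of each cell. It was not treated as raw counts. Raw tag counts of 34 antibodies were in the deposited antibody table, and the deposited metadata held raw UMI and tag counts per cell, the hashtag pool and the authors' cell type. Each group held the same number of cells, so cell numbers carry no information, and cell filters and correction covariates are not given in the sources used here. Doublets were treated as the authors left them. Of the metadata, 34 columns were left unused.

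Pools served as replicates, and whether the 2 brains of a pool differ was not measured. Values were averaged per type and pool. Genes with a mean of at least 0.05 were tested on log2(mean + 0.05) by limma 3.58.1 (trended prior variance, all 12 pools, adjusted p after Benjamini-Hochberg over all genes within a contrast). Fold changes on this scale understate those of low genes. Other types used pools of at least 10 cells and contrasts with at least 2 pools per group. High and other microglia were compared within pools, by limma for genes and, for antibody tags, by edgeR 4.0.16 with TMM (DESeq2 1.42.0 as an alternative). On simulated 2-fold changes, limma recovered 99.5% of 200 changed genes of 8759 for age in microglia with 9 false calls, and 92.5% of 200 of 8918 for high against other microglia with 9 false calls. The age changes of the members in microglia were smaller than 2-fold, and recovery at their sizes was not measured. edgeR recovered 100% of 4 changed antibodies of 34 with 1 false call.

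The members, the lists and the tests were chosen with earlier results of these data known. Genes named were every member past the threshold in a microglia contrast, or the 2 of smallest p where none passed, and the member of highest microglia mean in each role. For high microglia they were the 10 largest rises and 5 largest falls moving the same way in every pool, all antibodies past the threshold and PD-L1, CD169, CD64 and Ly6C. Other members were named after their values were seen. Some items under these rules are not reported here. Promoters came from RefSeq. Analysis used R 4.3.3, Python 3.11.15, numpy 2.4.6, pandas 2.3.3, scipy 1.17.1 and matplotlib 3.10.9.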

Additional observations from a re-analysis of the deposited data

Results flagged for a closer look

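Ifi27l2a in microglia stands out because its antibiotic pools were all below the control pools in young mice and all above them in aged mice. Its pool means were 0.306, 0.336 and 0.353 in young control, 0.185, 0.176 and 0.229 in young antibiotic, 0.566, 0.613 and 0.594 in aged control and 0.657, 0.676 and 1.03 in aged antibiotic pools. The difference of the 2 antibiotic effects was 0.99 on the log2 scale, and limma's test of that difference did not pass (adjusted p = 0.141). Groups of 3 pools are too small for a test of single outlying pools.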

How the results depend on the processing

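The 8 members with a mean under 0.05 were tested only with no filter. Across the alternatives no named member, of those called or of smallest p, changed direction in microglia. The count of members called for age was 4 with no filter, 4 with a mean of at least 0.2 and 3 with 4000 to 10000 raw UMIs, and 3 to 9 with 1 pool left out. Of all genes, 125 were called higher and 20 lower with no filter, and 123 and 34 with a mean of at least 0.2. They were 182 and 27 with 4000 to 10000 raw UMIs, against 193 and 40 with the main settings. For antibiotics in young mice the member count was 0 with a pseudocount of 0.5, no filter, a mean of at least 0.2, a mean over cells of log2(value + 1) or no trend, and 0 to 1 with 1 pool left out. With the mean of log2(value + 1), 18 of all genes were called higher and 40 lower, against 5 and 7 with the main settings. In aged mice the member count was 2 with a pseudocount of 0.5, 2 after scaling pools to one sum, 2 without cells carrying other types' markers, 4 with the mean of log2(value + 1) and 0 with a pseudocount of 0.01 or no filter, and 0 to 2 with 1 pool left out. With the mean of log2(value + 1), 223 of all genes were called higher and 216 lower, against 139 and 144 with the main settings. Over both ages the member count was 1 with the mean of log2(value + 1), 1 after scaling and 3 with 4000 to 10000 raw UMIs, and 0 to 1 with 1 pool left out. With 4000 to 10000 raw UMIs, 238 of all genes were called higher and 367 lower, against 189 and 284 with the main settings. For the difference the member count was 1 without cells carrying other types' markers, a choice made after seeing the data, and 0 to 2 with 1 pool left out. In other types it was 0 with at least 20 cells a pool and 0 to 4 with 1 pool left out of the age contrast. Except for filters and left-out pools or cells, which change what is tested, the cause was not tested. The score difference for age was 0.33, 0.114 with a pseudocount of 0.5, 0.423 with 0.01 and 0.28 to 0.39 with 1 pool left out. For antibiotics it was 0.15 in aged mice and 0.25 for the difference, and 0.0628 and 0.0954 with a pseudocount of 0.5. With 1 pool left out it was 0.0891 (without aged control pool 1) to 0.211 in aged mice. The share of high microglia differed with age by 5.59 percentage points at the 90th percentile and 0.576 at the 99th. For antibiotics in aged mice it differed by 0.575 at the 99th percentile and 1.64 with 4000 to 10000 raw UMIs, and 1.70 to 3.82 with 1 pool left out, and for the difference by 0.818 at the 99th percentile. Genes called outside the members were 1154 at the 90th percentile and 944 with no filter. Leaving out 1 pool gave 356 to 652 genes and 7 to 14 antibodies. Ttr reversed to 0.113 with 4000 to 10000 raw UMIs, SIRPa to 0.0431 at the 90th percentile and ranged from -0.151 to 0.00157 with 1 pool left out, the positive value being without aged control pool 3, and B220 to 0.00672 at the 90th percentile. The hashtag number as a replicate block for age gave 9 members. Pools with the same hashtag in the 2 wells did not deviate together (correlations of -0.0946 to 0.109), so the numbers were not taken to pair pools.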
